A study of Mus musculus with 24 samples.

Results

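Flagellin-treated macrophages of the CB-R1 mouse strain were compared with those of the C3Bir strain on 6 of the 24 Affymetrix arrays of the series, 3 per strain, selected by their titles. C3Bir denotes a C3H/HeJBir line and B6 is C57BL/6. CB-R1 carries a long stretch of B6 chromosome 3, the stretch with the Cdcs1 locus for colitis susceptibility, in an otherwise C3Bir genome. C3Bir, labelled as prone to colitis, carries its own form of that stretch, and CB-R1 is labelled as resistant. The reverse pair, B6 (labelled resistant) and BC-R3 (B6 with the C3Bir form of the Cdcs1 region), was used as a second reading of the allele difference at Cdcs1 on other arrays. All 4 strains lack functional Il10 (Il10-/-), and all donors were male. Their ages are not given in the sources used here. Bone marrow cells were grown into macrophages for 6 days and then either received the flagellin CBir1 at 1 µg/mL for 4 hours or stayed in medium alone. The design names 3 mice per genotype, RNA pooled from 3 wells per condition and 3 repeats of the experiment, so each of the 8 groups has 3 arrays. The ends of the B6 segment in CB-R1 and of the C3Bir segment in BC-R3 are not given in the sources used here. The strain pairs may thus not differ over the same stretch of chromosome 3. A difference between backgrounds cannot be told apart from a difference between the segments.

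Flagellin, the protein of bacterial flagella, is sensed at the cell surface by TLR5 and in the cytosol by NAIP5 and NAIP6 acting with NLRC4. TLR5 signals through MyD88 to NF-kB and so to cytokine genes such as Tnf and Il12b, and IL-10, which these mice lack, is a brake on that output. The C3H/HeJ family of strains also carries a defective Tlr4, on chromosome 4, which both strains compared here share. The distal part of mouse chromosome 3 holds a cluster of guanylate-binding protein genes (Gbp), interferon-induced GTPases that act on intracellular microbes, and the interferon-induced Ifi44 and Ifi44l.

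Values are the deposited log2 signals, so a difference of 1 is a factor of 2 on the array's own scale. A gene was called when limma, fitted to all 24 arrays, gave an adjusted p below 0.05 over all 18193 genes. Array medians lay between 6.55 and 6.64, and the lower quartile of an array, used as a mark of low signal, between 5.29 and 5.42. Replicate arrays correlated at 0.993 to 0.996 in C3Bir and at 0.996 to 0.997 in CB-R1 after flagellin. The macrophage label was borne out by its markers: Csf1r, the receptor for macrophage colony-stimulating factor, averaged 13.77 in each strain, and Lyz2, lysozyme of myeloid cells, 14.31 in CB-R1 and 14.27 in C3Bir. Flagellin array 1 of C3Bir stood apart from the other 2 C3Bir arrays in several gene groups described below. The treatment labels were not borne out by the cytokine genes. Tnf, the inflammatory cytokine that TLR5 signalling induces, read 8.64, 11.45 and 11.16 on the C3Bir arrays labelled unstimulated and 8.87, 9.36 and 9.38 on those labelled flagellin. Il12b, a subunit of interleukins 12 and 23, read 5.60, 9.29 and 9.75 against 5.70, 5.95 and 6.00. Unstimulated arrays 2 and 3 of C3Bir were thus the high ones. In B6, Il6 read 4.69, 10.93 and 11.20 without flagellin and 3.88 to 4.31 with it, and in BC-R3 unstimulated array 1 was the high one, with Tnf at 11.17 against 8.89 and 8.99. In CB-R1, Tnf read 8.41 to 8.61 without flagellin and 8.67 to 8.77 with it. Conditions are named here as labelled, and the cause of this pattern was not tested. A fit that left out the high unstimulated arrays (2 and 3) of both C3Bir and B6, chosen after seeing the data, called 8 genes between the flagellin groups, 6 of them among the 10 described next. Nothing in the labels ties an array to a single mouse, so the p-values measure the spread between these samples, which may in part be technical. The fit pools the spread of all 24 arrays, the mixed unstimulated ones included. For genes that varied on those arrays, such as cytokine and NF-kB genes, a missing call between the flagellin groups says little.

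With flagellin, 10 genes differed between CB-R1 and C3Bir, 8 higher and 2 lower in CB-R1. All 10 make up 0.0550% of the genes tested, the 8 higher 0.0440% and the 2 lower 0.0110%. Olfml3, which encodes a secreted olfactomedin-like glycoprotein, rose most, and Ifi44l and Gbp2b fell. These 3 genes were also called, with the same sign, between B6 and BC-R3, and were the only genes called there (0.0165% of all genes; 0.00550% higher and 0.0110% lower in B6). Mcoln3, Chil3 and H2bc18 on chromosome 3 and Ppbp, Adgrg3, Gstp1 and Pxylp1 on 4 other chromosomes were the remaining genes called higher in CB-R1. At an unadjusted p below 0.05 there were 1472 genes. After quantile normalization the split was 9 higher and 5 lower.

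Ifi44l, Olfml3, Mcoln3, Ppbp and Gbp2b passed in all 6 fits that left out 1 of the 6 arrays and in all 12 other settings of scaling, probe sets and model, each without a minimum difference. Adgrg3 passed in 3 of those 6 fits, Gstp1, H2bc18 and Pxylp1 in 2, and Chil3 in 1. Chil3 was lost without any 1 array other than flagellin array 1 of C3Bir, with adjusted p from 0.102 to 0.351. Without flagellin array 1 of C3Bir the count of called genes was 74, with 38 higher (0.209%) and 36 lower (0.198%), the 10 among them. It was 5 without flagellin array 3 of C3Bir and 5 without flagellin array 1 of CB-R1.

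Olfml3 read 10.40, 10.29 and 10.22 on the CB-R1 arrays and 7.51, 7.56 and 7.44 on the C3Bir arrays. The groups lay far apart, and the arrays of each strain lay close together. The difference was 2.80 ± 0.19 (SE of the fit, n = 3 per strain, adjusted p = 5.33e-08), or 6.96-fold. B6 averaged 10.39 ± 0.18 (SD, n = 3), close to CB-R1, and BC-R3 7.91 ± 0.20, close to C3Bir. B6 minus BC-R3 came to 2.48 ± 0.19 (SE, adjusted p = 3.13e-07).

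Ifi44l, an interferon-induced gene, read 5.36, 5.09 and 5.24 in CB-R1 and 11.04, 9.68 and 9.46 in C3Bir. The CB-R1 arrays were at the low-signal mark, so no fold change is given, and array 1 of C3Bir was above the other 2. The log2 difference was -4.83 ± 0.34 (SE, adjusted p = 5.33e-08). B6 was as low as CB-R1, at 5.13 ± 0.14 (SD, n = 3), and BC-R3 stood at 9.96 ± 0.26. Ifi44l has 2 further probe sets, with differences of -4.23 and -0.73, and neither overlapped between the strains. The one with -0.73 was below the low-signal mark in both strains, at 3.83 in CB-R1 and 4.57 in C3Bir.

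Gbp2b, the gene long known as Gbp1, is induced by interferon-gamma in some inbred strains and hardly in C57BL/6. It read 6.20, 5.56 and 5.94 in CB-R1 and 9.72, 9.68 and 9.88 in C3Bir. All 3 CB-R1 arrays were below all 3 C3Bir arrays, by -3.87 ± 0.57 on the log2 scale (SE, adjusted p = 0.00446), or 14.6-fold. B6 minus BC-R3 was -4.21 ± 0.57 (adjusted p = 0.00218), from 5.68 ± 0.06 (SD, n = 3) in B6 and 9.89 ± 0.42 in BC-R3.

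Mcoln3 encodes TRPML3, a cation channel of endosomes and lysosomes. It read 7.38, 7.64 and 7.26 in CB-R1 and 6.01, 6.05 and 5.89 in C3Bir, with no overlap. The difference was 1.44 ± 0.13 (SE, adjusted p = 2.89e-06), or 2.72-fold, and its other probe set gave 1.01. On the B6 background the difference had the same sign, 0.71 ± 0.13, and missed the threshold (adjusted p = 0.105), with B6 at 6.81 ± 0.11 (SD, n = 3) and BC-R3 at 6.10 ± 0.05. The difference between the 2 backgrounds, 0.74 ± 0.18 (SE), was not called (adjusted p = 0.279).

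The stretch just upstream of these 4 genes, those with the largest differences on chromosome 3 among the stable calls, is shown as the place where promoter variants between the strains could be looked for. The letters are RefSeq's for GRCm38.p6, the C57BL/6J genome, so they give the form that B6 and, within its segment, CB-R1 would carry, and the C3Bir form was not used here. Each line gives the 250 bases before the annotated transcription start, 5′ to 3′ on the gene's own strand, at chr3:103738002-103738251 (minus strand), chr3:142594597-142594846 (plus strand), chr3:146121541-146121790 (plus strand) and chr3:151762892-151763141 (minus strand). Capitals mark a match to the interferon-stimulated response element.
Olfml3: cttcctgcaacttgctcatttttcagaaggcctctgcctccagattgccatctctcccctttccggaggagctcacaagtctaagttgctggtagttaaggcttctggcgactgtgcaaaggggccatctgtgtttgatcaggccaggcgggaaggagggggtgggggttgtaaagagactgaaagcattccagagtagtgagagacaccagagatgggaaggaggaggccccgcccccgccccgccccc
Gbp2b: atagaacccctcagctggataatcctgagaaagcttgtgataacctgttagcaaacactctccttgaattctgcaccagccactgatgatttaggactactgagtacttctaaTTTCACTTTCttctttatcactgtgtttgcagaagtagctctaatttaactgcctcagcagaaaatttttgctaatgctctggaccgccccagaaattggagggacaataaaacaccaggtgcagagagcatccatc
Mcoln3: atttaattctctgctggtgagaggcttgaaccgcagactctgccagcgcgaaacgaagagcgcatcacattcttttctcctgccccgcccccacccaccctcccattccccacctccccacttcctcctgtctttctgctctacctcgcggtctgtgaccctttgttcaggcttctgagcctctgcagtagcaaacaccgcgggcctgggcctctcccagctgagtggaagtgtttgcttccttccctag
Ifi44l: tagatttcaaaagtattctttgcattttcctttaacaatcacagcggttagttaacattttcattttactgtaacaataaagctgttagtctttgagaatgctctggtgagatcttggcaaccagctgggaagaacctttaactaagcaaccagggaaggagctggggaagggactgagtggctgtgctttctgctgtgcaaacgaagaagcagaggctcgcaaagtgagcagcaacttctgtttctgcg
Both strands were searched for the interferon-stimulated response element, named here without its letters, and for the gamma-activated site, TTCNNNGAA. The response element had 1 match, in Gbp2b, TTTCACTTTC on the minus strand, starting 137 bases before the transcription start (position -137). Of 32851 RefSeq promoter windows of the same length, 2.98% hold such a match. The gamma-activated site was not found in these 4 windows and is found in 7.02% of all. The upstream stretches of Gbp2b and Ifi44l had a GC content of 42.4% and 43.2%, against 57.6% for Olfml3 and 58% for Mcoln3.

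**Figure D1:**
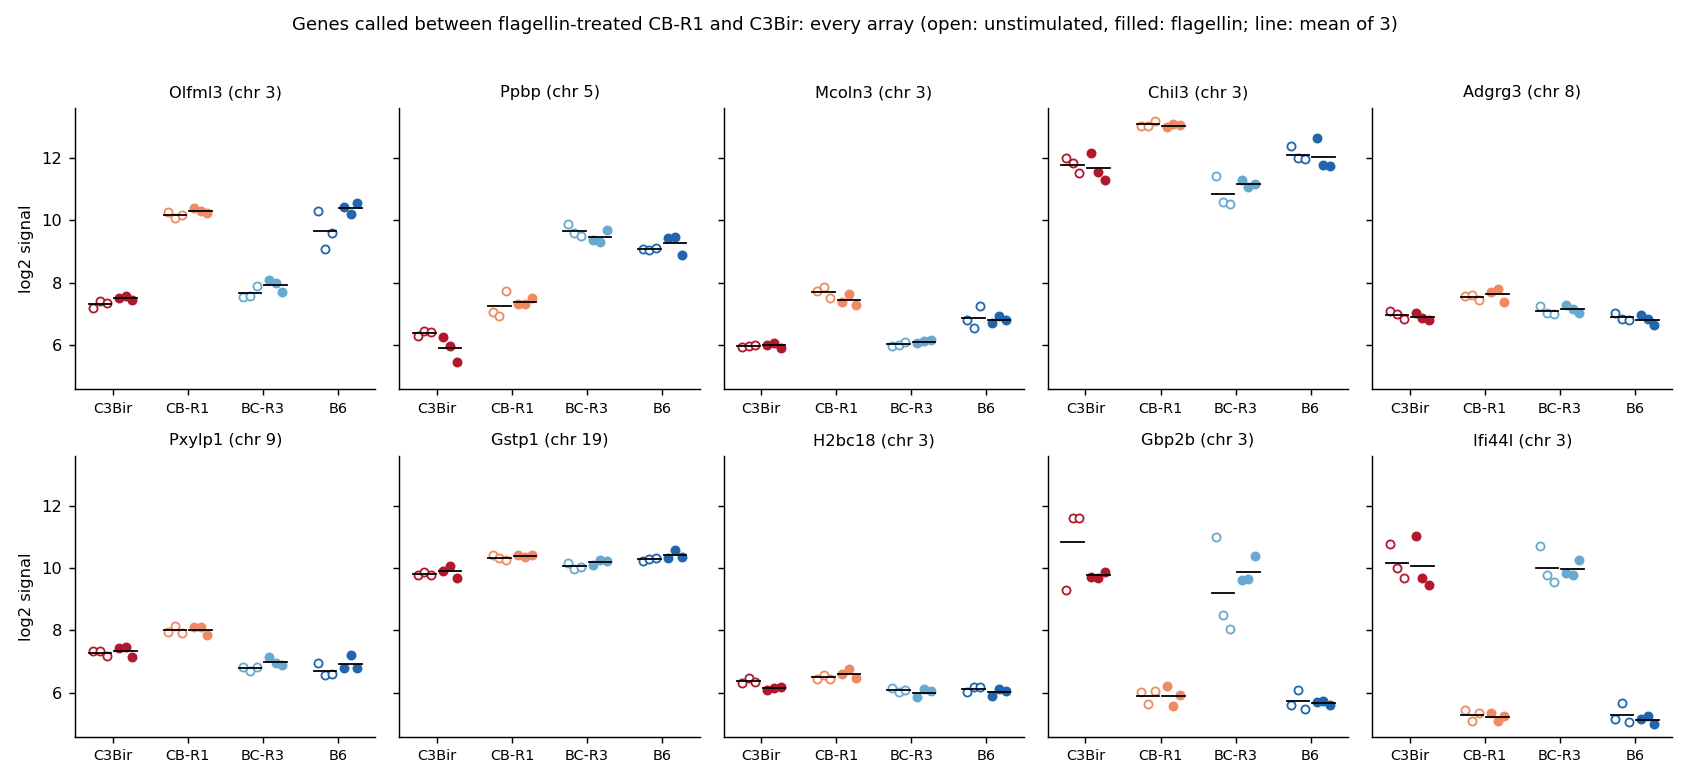
Log2 signal (vertical axis) of the 10 genes called between flagellin-treated CB-R1 and C3Bir, 1 panel per gene, on all 24 arrays, with strains on the horizontal axis. Open circles are unstimulated and filled circles flagellin arrays, and black lines are means of 3 arrays; Olfml3, Gbp2b and Ifi44l sit at B6 levels in CB-R1 and at C3Bir levels in BC-R3, while Ppbp is higher in both B6 and BC-R3 than in CB-R1.

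Chil3 encodes Ym1, a chitinase-like protein secreted by macrophages and neutrophils. It was among the brightest genes, at 12.98, 13.08 and 13.05 in CB-R1 against 12.15, 11.56 and 11.29 in C3Bir. Array 1 of C3Bir came closest to CB-R1. The difference was 1.37 ± 0.24 (SE, adjusted p = 0.0291), or 2.58-fold. B6 averaged 12.04 ± 0.51 (SD, n = 3), between C3Bir at 11.67 and CB-R1 at 13.04, and BC-R3 averaged 11.18 ± 0.12. B6 minus BC-R3 was 0.86 ± 0.24 (SE) and was not called. The 3 B6 arrays were nevertheless all above the 3 BC-R3 arrays, as in 3.44% of all genes (3.17% were below, 6.60% either). The probe set of its close paralog Chil4 gave 0.19 ± 0.12 (adjusted p = 0.759), but the 2 genes are alike in sequence and the array may not separate them fully.

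H2bc18, a histone H2B gene, read 6.60, 6.76 and 6.46 in CB-R1 and 6.08, 6.14 and 6.17 in C3Bir. Both groups were not far above the low-signal mark, and they did not overlap. The difference was 0.48 ± 0.08 (SE, adjusted p = 0.0309). It was 0.12 ± 0.08 on the unstimulated arrays and 0.01 ± 0.08 between B6 and BC-R3, neither of them called. Histone genes are near-identical copies, so which H2B gene the probe set reads is uncertain.

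Of the called genes outside chromosome 3, Ppbp had the largest difference. Ppbp encodes the precursor of the chemokine CXCL7, best known from platelets. It read 7.30, 7.33 and 7.52 in CB-R1 and 6.26, 5.97 and 5.46 in C3Bir, a difference of 1.49 ± 0.19 (SE, adjusted p = 0.00104), or 2.80-fold. Both backgrounds with a B6 genome were higher still, at 9.25 ± 0.31 (SD, n = 3) in B6 and 9.45 ± 0.20 in BC-R3. Their difference was -0.20 ± 0.19 (SE). Other platelet genes were not called: the difference was 0.10 ± 0.17 for Pf4 and -0.03 ± 0.07 for Gp9. Of 9 measured erythroid and megakaryocyte genes, Ppbp included, 4 were higher and 0 lower on all CB-R1 arrays, where 10.2% and 6.96% of all genes were. The mean of that list was 7.33, 7.24 and 7.31 in CB-R1 and 7.14, 7.12 and 6.96 in C3Bir.

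Adgrg3 encodes GPR97, an adhesion receptor of granulocytes and other myeloid cells. Its arrays read 7.70, 7.79 and 7.37 in CB-R1 and 7.01, 6.87 and 6.79 in C3Bir, a difference of 0.73 ± 0.11 (SE, adjusted p = 0.00584). Between B6 and BC-R3 the sign was the opposite, -0.34 ± 0.11. The difference between these 2 differences was called for Ppbp and Adgrg3, higher on the C3Bir background (0.0110% of all genes), and for Pgap1, lower (0.00550%), 0.0165% in all. No gene was called for it in the fit of the 12 flagellin arrays (lowest adjusted p = 0.128), and 0 to 8 were when 1 array was left out. With a replicate block on the B6 and BC-R3 flagellin arrays, Ppbp missed the threshold (adjusted p = 0.0699) and Adgrg3 kept it (0.00651). Gstp1, a pi-class glutathione transferase on chromosome 19, read 10.42, 10.35 and 10.42 in CB-R1 and 9.91, 10.06 and 9.69 in C3Bir, a difference of 0.51 ± 0.09 (SE, adjusted p = 0.0211). Its neighbour Gstp2 is a near copy that the probe set may also read. Pxylp1, a phosphatase of glycosaminoglycan synthesis on chromosome 9, read 8.12, 8.09 and 7.85 in CB-R1 and 7.44, 7.47 and 7.14 in C3Bir, a difference of 0.67 ± 0.12 (SE, adjusted p = 0.0423). Of its 2 other probe sets, one gave 0.65 and the other -0.11. For Olfml3, Gbp2b, Chil3, Ppbp, Adgrg3, Gstp1 and H2bc18 a single probe set with 1 gene symbol was found, those with several symbols or none not having been examined, and a sequence variant under its probes and a change in RNA level cannot be told apart from these data.

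The strain difference was much the same without flagellin for most of these genes. The unstimulated difference was 2.86 ± 0.19 (SE) for Olfml3, -4.87 ± 0.34 for Ifi44l, -4.94 ± 0.57 for Gbp2b and 1.74 ± 0.13 for Mcoln3. It was 1.30 ± 0.24 for Chil3, 0.86 ± 0.19 for Ppbp, 0.72 ± 0.12 for Pxylp1, 0.56 ± 0.11 for Adgrg3 and 0.51 ± 0.09 for Gstp1. All of these 9 were called in the unstimulated comparison, and H2bc18 was not. That comparison called 183 genes (1.01%), 142 higher (0.781%) and 41 lower (0.225%). Unstimulated array 1 of C3Bir alone, set against the CB-R1 mean, gave 3.00 for Olfml3, -5.50 for Ifi44l, -3.39 for Gbp2b and 1.76 for Mcoln3. The unstimulated count fell to 3 without unstimulated arrays 2 and 3 of B6 and C3Bir, and was 7 in a fit of the 12 unstimulated arrays.

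The strain difference on the flagellin arrays was then compared with that on the arrays labelled unstimulated. The C3Bir arrays labelled unstimulated were mixed, with Tnf at 8.64, 11.45 and 11.16, against 8.87, 9.36 and 9.38 on those labelled flagellin. The comparison therefore cannot decide whether the strain difference depended on flagellin, and its counts are given as labelled. limma called 0 genes for the difference between the flagellin and the unstimulated strain contrast, with a lowest adjusted p of 0.911 and 894 genes at an unadjusted p below 0.05. Leaving out unstimulated array 1 of C3Bir gave 4 calls. The difference was 0.63 ± 0.27 (SE) for Ppbp, 0.36 ± 0.12 for H2bc18 and 1.08 ± 0.80 for Gbp2b. Gbp2b was most spread on the unstimulated arrays, at 9.29, 11.61 and 11.61 in C3Bir and 11.00, 8.50 and 8.05 in BC-R3.

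**Figure D2:**
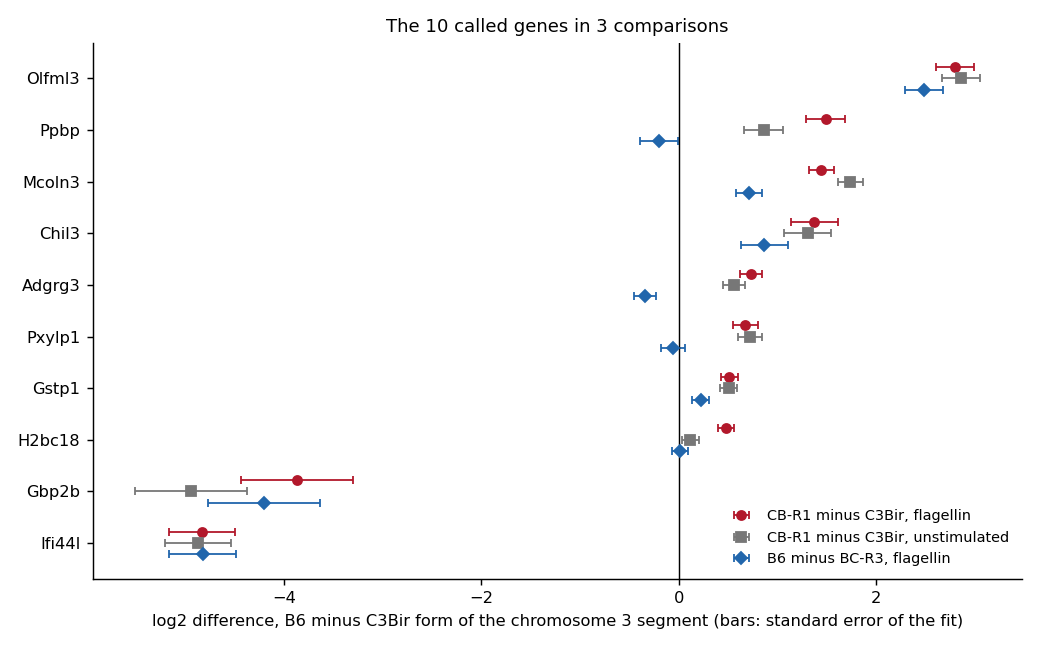
Log2 difference (horizontal axis) of each of the 10 called genes for CB-R1 minus C3Bir with flagellin (red), the same without flagellin (grey) and B6 minus BC-R3 with flagellin (blue), always B6 form minus C3Bir form of chromosome 3; bars are standard errors of the fit. Olfml3, Gbp2b and Ifi44l have similar differences in all 3 comparisons, and Ppbp, Adgrg3, Pxylp1 and H2bc18 are near or below 0 for B6 minus BC-R3.

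Chromosome 3 held 6 of the 10 called genes, 0.657% of its 913 measured genes against 0.0550% of all genes. In the order of genes along the chromosome they were H2bc18 at 532, Olfml3 at 602, Chil3 at 634, Gbp2b at 832, Mcoln3 at 859 and Ifi44l at 874. The genes before H2bc18 held none in this fit. Other fits did call genes there. The fit of the 12 flagellin arrays called Ccna2 at 113 and Cd5l at 313. Genes called on the unstimulated arrays included Sfrp2 at 289, Cd5l at 313 and Cks1b at 382. The share of genes whose 3 CB-R1 arrays all lay on one side of the 3 C3Bir arrays was 18.6% on chromosome 3 and 17.2% over all genes. Over all genes 10.2% were higher and 6.96% lower in this way; the split was 1859 against 1267 in the deposited values, 1418 against 1754 after quantile normalization and 1582 against 1575 after median centring. Only 9 chromosome 3 genes combined such separation with a difference of at least 1: Slc7a11, Cd5l, Cnn3 and Ccn1, none of them called, and 5 of the called genes.

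**Figure D3:**
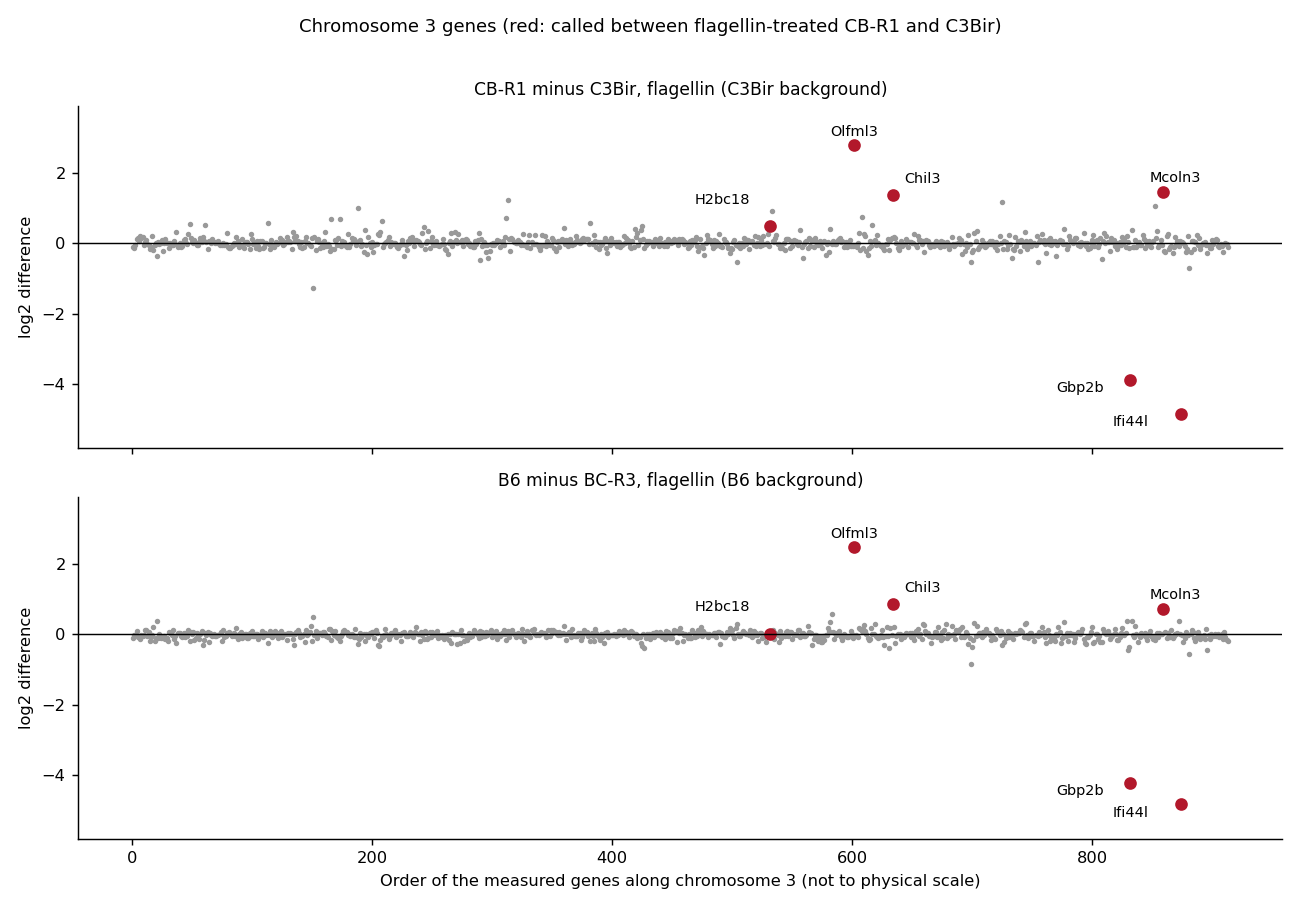
Log2 difference (vertical axis) of the 913 measured chromosome 3 genes in their order along the chromosome (horizontal axis, not to physical scale), for CB-R1 minus C3Bir (top) and B6 minus BC-R3 (bottom), flagellin arrays. Grey points are single genes and red points the 6 genes called between CB-R1 and C3Bir; all 6 lie from position 532 on, and Olfml3, Gbp2b and Ifi44l stand as far from 0 in the lower panel.

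The resemblance of CB-R1 to B6 was described, with no test, on genes that differed between the parents without flagellin. Between the unstimulated C3Bir and B6 arrays 142 chromosome 3 genes differed, and on the flagellin arrays the CB-R1 mean was nearer to B6 than to C3Bir for 58 of them (40.9%). For other chromosomes it was 772 of 2895 (26.7%). The called genes Olfml3, Gbp2b and Ifi44l are among the 58, and their CB-R1 values are those that called them. S1pr1, at 9.71 in CB-R1, 9.35 in B6 and 10.24 in C3Bir, and Miga1, at 6.96, 6.83 and 7.68, lay between the parents and nearer to B6. Gbp7 and Adgrl2 were nearer to C3Bir, Adgrl2 at 8.74 in CB-R1, 9.90 in B6 and 8.81 in C3Bir. Nearer to B6 did not always mean at the B6 level. Cnn3 and Ccn1 averaged 7.88 and 8.14 in CB-R1, above 7.07 and 7.61 in B6, and their B6 minus BC-R3 differences had the opposite sign, -0.29 and -0.16. Stromal markers were higher in CB-R1 as well, and their part in these genes was not tested. The count was 34 of 85 (40%) without unstimulated array 2 of B6, 32 of 79 (40.5%) without array 3 and 89 of 214 (41.6%) without array 1. On other chromosomes the share was then 23.07%, 23.42% and 30.74%. The gap between chromosome 3 and the others varied with the array left out. It was 33.77% against 27.33% without flagellin array 2 of B6 and 44.52% against 34.92% without flagellin array 1 of C3Bir. Without unstimulated array 1 of C3Bir it was 46.3% against 28.47%.

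The measured neighbours of Gbp2b in the gene cluster gave no call. Gbp2, Gbp3 and Gbp7, GTPases of the same family, had differences of 0.39 ± 0.62, -0.12 ± 0.65 and 0.02 ± 0.59 (SE). Their 95% intervals, -0.90 to 1.67, -1.48 to 1.23 and -1.21 to 1.26, are wide. Gbp2 read 9.79, 9.42 and 10.29 in CB-R1 and 9.36, 9.39 and 9.60 in C3Bir, so the groups overlapped. The Gbp genes are alike in sequence, and their probe sets may read one another in part.

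Other genes of interest near Cdcs1 gave no call. Mcoln2, the neighbour of Mcoln3 that encodes another channel of the family, differed by -0.22 ± 0.26 (SE, adjusted p = 0.884), and by 0.72 ± 0.26 between B6 and BC-R3. Tifa and Bcl10, adaptors upstream of NF-kB, differed by -0.02 ± 0.14 and -0.10 ± 0.09. Csf1, the macrophage growth factor, differed by 0.27 ± 0.36. Fcgr1, the high-affinity IgG receptor, differed by 0.92 ± 0.41 (adjusted p = 0.563). It read 11.66, 11.50 and 12.14 in CB-R1 and 11.77, 10.41 and 10.36 in C3Bir, so that array 1 of C3Bir lay within the CB-R1 range. Of 83 measured genes listed near Cdcs1, 2 were called higher (Olfml3 and Mcoln3), against 0.0440% of all genes, and 2 lower (Gbp2b and Ifi44l), against 0.0110%, and the median difference was -0.00, against 0.01 over all genes.

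Genes called in a fit of the 12 flagellin arrays alone were partly others. That fit called 13 genes (0.0715%), 8 higher (0.0440%) and 5 lower (0.0275%), 6 of the 10 among them. Chil3 (adjusted p = 0.0550), Pxylp1 (0.0874), Gstp1 and H2bc18 (0.0907 each) missed the threshold there. Added were the proliferation gene Ccna2 (0.59), Cd5l, a secreted scavenger receptor of macrophages (1.22), and the transcription factor Klf5 (0.61), higher in CB-R1, though both other probe sets of Klf5 overlapped between the strains. The growth factor gene Vegfc was also added, but its means, 5.18 and 4.61, are below the low-signal mark in both strains. Cd83, a surface marker of activated antigen-presenting cells (-0.61), Miga1, a mitochondrial fusion factor (-0.71), and S1pr1, the sphingosine-1-phosphate receptor (-0.53), were lower. Of the added genes, S1pr1, Miga1, Ccna2 and Cd5l lie on chromosome 3. Between B6 and BC-R3, S1pr1 and Miga1 had the same sign, at -0.83 and -0.56. Ccna2 had the opposite sign there, at -0.24, and Cd5l was near 0, at 0.08. Cd5l read 9.84, 9.64 and 9.99 in CB-R1 and 9.12, 8.48 and 8.23 in C3Bir.

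Flagellin sensors gave no call. Tlr5 differed by 0.12 ± 0.10 (SE; 95% interval -0.09 to 0.32), and Naip5 by 0.03 ± 0.18. Tlr4, the receptor for lipopolysaccharide, differed by 0.08 ± 0.17 and was not called either. Tlr5 read 7.25, 7.30 and 7.38 in CB-R1 and 7.28, 7.02 and 7.28 in C3Bir. Of 18 measured genes of flagellin sensing and the inflammasome, 0 were called, 2 were higher and 4 lower on all CB-R1 arrays, where 10.2% and 6.96% of all genes were, and the median difference was -0.05.

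Cytokine genes gave no call between the strains, on flagellin arrays that in C3Bir read lower than the unstimulated ones: Tnf averaged 9.20 against 10.42, Il1b 9.08 against 10.79 and Il12b 5.88 against 8.21. Tnf read 8.74, 8.67 and 8.77 in CB-R1 and 8.87, 9.36 and 9.38 in C3Bir, a difference of -0.48 ± 0.63 (SE, adjusted p = 0.903). Il1b differed by -0.00 ± 0.78, Il6 by 0.10 ± 0.99, Il12b by -0.15 ± 0.95 and Nos2, inducible nitric oxide synthase, by 0.07 ± 0.28. Il6 was below the low-signal mark in both strains. The probe set for the targeted gene Il10 read 6.83 ± 0.18 (SD, n = 3) in CB-R1 and 6.55 ± 0.21 in C3Bir; whether it lies in the deleted part of the gene was not determined, so it checks nothing. Among 19 cytokine genes the median difference was 0.01, and among 23 chemokine genes 0.10, with 0 called in each. Of the chemokine genes 4 were higher and 4 lower on all CB-R1 arrays, where 10.2% and 6.96% of all genes were. Ccl2, Ccl7 and Ccl12, chemokines that draw monocytes, and Cxcl13 were the higher ones, with differences of 0.64 ± 0.44, 0.86 ± 0.36, 1.30 ± 0.56 and 0.07 ± 0.09 (SE). Cxcl1, Cxcl2 and Cxcl3, chemokines that draw neutrophils, and Cxcl5 were the lower ones, with differences of -0.55 ± 0.55, -1.89 ± 0.84, -1.53 ± 1.45 and -0.19 ± 0.36.

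NF-kB genes leaned lower in CB-R1 without a call. Of 21 measured members, 10 were lower and 0 higher on all CB-R1 arrays, where 6.96% of all genes were lower, and the median difference was -0.27. Tnfaip3, the feedback deubiquitinase A20, differed by -0.54 ± 0.35 (SE), Relb, an NF-kB subunit, by -0.44 ± 0.25 and Nfkbia, the inhibitor IkB-alpha, by -0.24 ± 0.23. The list mean per array was 9.38 to 9.58 in CB-R1 and 9.65 to 9.82 in C3Bir. Between B6 and BC-R3 the median was 0.04.

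Interferon-stimulated genes had positive differences, again without a call, and most of them overlapped between the strains. All 31 measured members had a positive difference, with a median of 0.55. Only 3 of them (Oas1a, Oas3 and Ifi35) were higher on all CB-R1 arrays, about the share over all genes (10.2%). The differences all come from the same 6 arrays, so their shared sign is not 31 separate readings. Irf7, the transcription factor that amplifies type I interferon, differed by 1.08 ± 0.47 (SE, adjusted p = 0.552), Ifit3 by 1.05 ± 0.61 and Cxcl10 by 0.70 ± 0.84. The list mean was 10.67, 10.49 and 11.17 in CB-R1 and 10.77, 9.85 and 9.87 in C3Bir. Array 1 of C3Bir was thus within the CB-R1 range. Without it all 31 members were higher on every CB-R1 array, where 19.2% of all genes were higher and 18.4% lower, the median was 0.82 and 0 were called. That array was picked after seeing the data. Leaving out the C3Bir array nearest to CB-R1 widens the gap by construction, so these values are no further support. Ifi44l and Gbp2b, themselves interferon-induced, went the opposite way. The unstimulated median of the list was -0.02 and that between B6 and BC-R3 -0.14.

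Glutathione and antioxidant genes under the transcription factor NRF2 included Gstp1 as their single call among 23 measured. On all CB-R1 arrays 3 were higher (Gstp1, Gstt1 and Gstm6), where 10.2% of all genes were, and 8 lower, where 6.96% were. The lower ones included Gclc, the catalytic subunit of glutathione synthesis, at -0.58 ± 0.20 (SE) and the cystine transporter gene Slc7a11 at -1.27 ± 0.66. The chromosome 3 cluster of Gstm genes, mu-class glutathione transferases, lay between -0.24 (Gstm1) and 0.21 (Gstm5), with 0 called. Chil3 was the single call among 18 genes of alternative activation, where Arg1 differed by -0.04 ± 0.09 and Mrc1, the mannose receptor, by 0.16 ± 0.26. Mcoln3 was the single call among 22 lysosomal genes, whose median was -0.06.

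Proliferation genes were higher in CB-R1 on nearly all arrays but were not called. Of 24 measured, 19 were higher and 0 lower on all CB-R1 arrays, where 10.2% of all genes were higher, and the median difference was 0.44. Rrm2, a ribonucleotide reductase subunit, differed by 0.82 ± 0.21 (SE, adjusted p = 0.198), Cdk1, the mitotic kinase, by 0.58 ± 0.15 and Mki67, the gene of the Ki-67 antigen, by 0.42 ± 0.16. On the unstimulated arrays the median was 0.47, 9 members were called higher and 22 were higher on all arrays, where 12.4% of all genes were higher, 8.44% lower and 20.8% either. Between B6 and BC-R3 it was -0.17.

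Among markers of other cells, those of neutrophils and of stromal cells were mostly higher in CB-R1, and none of these was called. Of 10 neutrophil markers, 9 were higher on all CB-R1 arrays, where 10.2% of all genes were, and 0 were called, with a median difference of 0.84 and a range from 0.38 to 1.01. None of them was near the low-signal mark. S100a8 and S100a9, calcium-binding proteins of neutrophils, stood at 13.76 and 13.99 in CB-R1 and at 13.37 and 13.51 in C3Bir, and Mpo, myeloperoxidase, at 11.87 and 10.87. The mean of the list was 11.55, 11.73 and 11.56 in CB-R1 and 11.39, 10.77 and 10.50 in C3Bir, so that array 1 of C3Bir was again nearest to CB-R1. Without it the median was 1.16 and all 10 were higher on every CB-R1 array, where 19.2% of all genes were. This omission too was picked after seeing the data and widens the gap by construction.

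Of 14 stromal markers, 11 were higher on all CB-R1 arrays, where 10.2% of all genes were, and 0 were called, with a median difference of 1.01. Col1a2 and Col3a1, fibrillar collagens, differed by 1.30 ± 0.54 and 1.70 ± 0.44 (SE), and Cxcl12, a stromal chemokine, by 1.46 ± 0.47. The list mean was 8.93, 8.62 and 8.72 in CB-R1 and 7.58, 8.10 and 7.82 in C3Bir. Thy1 stood at the low-signal mark in both strains, at 5.40. Median differences for the marker lists of mast cells, erythroid cells, B cells, dendritic cells and T or NK cells lay between 0.00 and 0.10, Ppbp being the single call. Of the 9 erythroid and megakaryocyte genes 4 were higher on all CB-R1 arrays, where 10.2% of all genes were. In B6 minus BC-R3 the neutrophil median was -0.23 and the stromal median -0.21. The part of these other cells in the differences of Chil3, Adgrg3 and the other genes called higher in CB-R1 was not tested, and more cells of a type and more RNA per cell cannot be told apart in such samples. The macrophage genes Csf1r (-0.00 ± 0.10), Adgre1, which encodes F4/80 (0.07 ± 0.16), and Cd68 (-0.03 ± 0.06) gave no call. Of 26 measured macrophage genes 0 were called, and the median difference was 0.03. Their differences ran from -0.36 to 1.22, the highest being that of Cd5l. On all CB-R1 arrays 2 were higher and 4 lower, where 10.2% and 6.96% of all genes were.

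**Figure D4:**
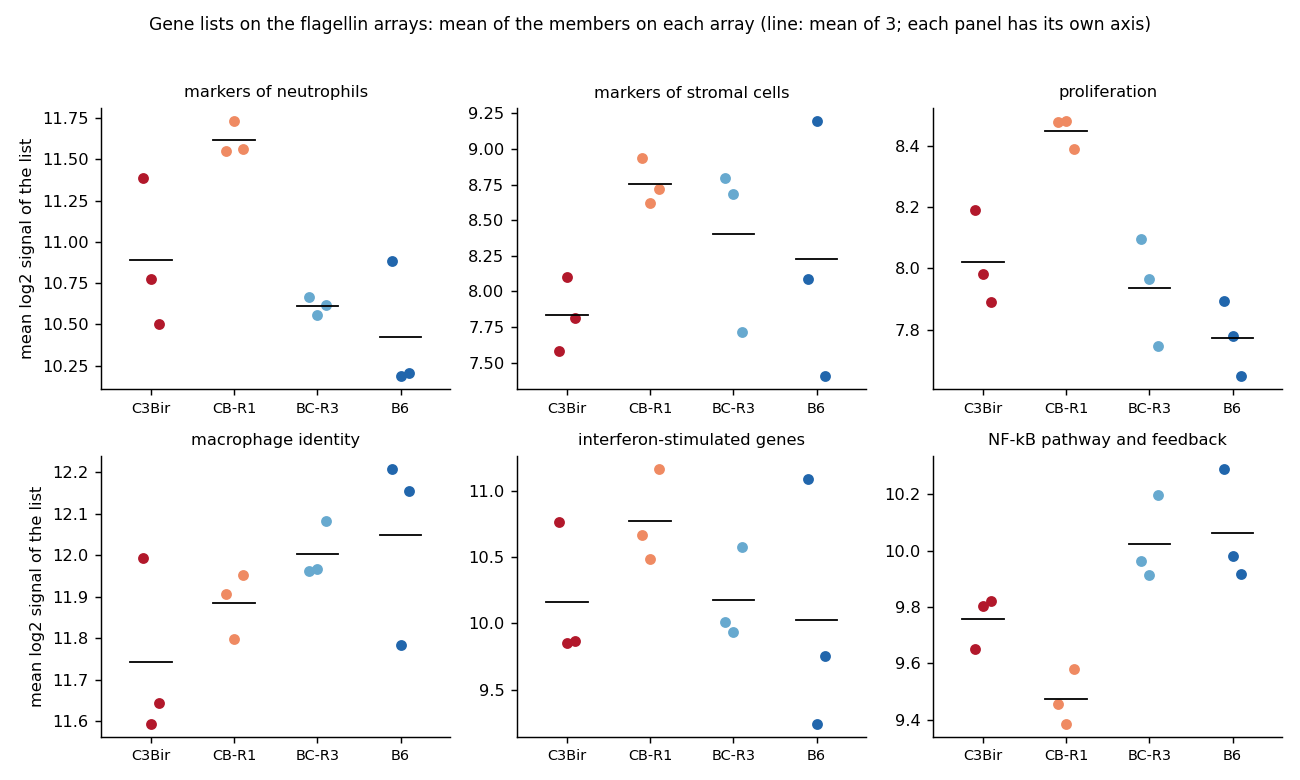
Mean log2 signal (vertical axis, its own range in each panel) of the measured members of 6 gene lists on each of the 12 flagellin arrays, by strain. Points are arrays and lines means of 3; neutrophil, stromal and proliferation lists are higher on all 3 CB-R1 arrays than on all 3 C3Bir arrays, the NF-kB list is lower, and the macrophage and interferon lists overlap through array 1 of C3Bir.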

How the data were processed

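RNA of bone marrow-derived macrophages was amplified, labelled and hybridised to Affymetrix arrays, per the labels' protocols. The values used are those the authors deposited, on a log2 scale as their range shows, for 45033 probe sets with values on 24 arrays; their background correction and normalization are not given in the sources used here. They were not rescaled, since the array medians lay within 0.1 of each other. Counts of reads do not exist for arrays, and the 3 arrays per group limit the precision.

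For each gene the brightest probe set, by its mean over the 24 arrays, was taken from the 34944 that have 1 symbol in GEO's platform annotation, updated through a RefSeq table of GRCm38.p6; 931 probe sets with several symbols and 9158 without one were left out. This gave 18193 genes, 18032 of them in the RefSeq table. limma 3.58.1 in R 4.3.3 fitted 8 group means (16 residual degrees of freedom), with moderated tests and Benjamini-Hochberg adjustment over all genes in each of 5 contrasts. The fit was tested on simulated data. Standard errors are those of the fit, with a spread pooled over all 8 groups, and deviations (SD) those over 3 arrays. A group mean below 5.42, the highest lower quartile of any array, was taken as low signal. Promoters were read from RefSeq.

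Comparisons of B6 with BC-R3 share no array with those of CB-R1 and C3Bir. Flagellin and unstimulated arrays with the same number correlated within strain in their deviations from the group means (0.30 to 0.51 in CB-R1, 0.31 to 0.48 in C3Bir), so the numbers pair the conditions within a strain. The numbers pair B6 with BC-R3 less clearly on the flagellin arrays (0.12 to 0.35). There, array 1 of B6 correlated more with array 3 of BC-R3 (0.17) than with array 1 (0.14). CB-R1 and C3Bir are not paired by number (-0.13 to 0.14). Under a random block for strain and number, 251 genes were called between the unstimulated strains in place of 183, 10 between the flagellin strains and 0 for the difference between conditions. Alternatives changed the scaling, probe set rule, filter, moderation, arrays fitted and block, and left out each array.

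The genes named were all called genes, a list of 30 genes of interest of which 25 were measured, and the called members of 23 lists holding 439 measured genes (37 others were not analysed here). The members and lists were chosen with earlier results of these data known, and further examples were chosen after their values were seen. Alpk1, Nfkb1, Gbp5, Ifi44 and Nlrc4 were not analysed here.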

Additional observations from a re-analysis of the deposited data

Results flagged for a closer look

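In 3 genes the CB-R1 minus C3Bir difference with flagellin differed from the B6 minus BC-R3 difference, by a test of the difference itself over the same fit (limma), which called 3 genes (0.0165%), with 1206 at an unadjusted p below 0.05. For Ppbp, the CXCL7 precursor, the difference between the backgrounds was 1.68 ± 0.27 (SE, adjusted p = 0.0324). For Adgrg3, the adhesion receptor GPR97, it was 1.07 ± 0.16 (adjusted p = 0.0200), with all 3 CB-R1 arrays above C3Bir and all 3 B6 arrays below BC-R3. For Pgap1, an enzyme that remodels the lipid of GPI anchors, it was -1.34 ± 0.21 (adjusted p = 0.0238). Pgap1 read 6.75, 6.37 and 6.66 in CB-R1 and 7.17, 7.45 and 7.45 in C3Bir, a difference of -0.76 ± 0.15 that was not called (adjusted p = 0.0712). It read 7.84, 7.94 and 7.70 in B6 and 7.21, 6.93 and 7.60 in BC-R3, a difference of 0.58 ± 0.15. None of the 3 genes lies on chromosome 3. In a fit of the 12 flagellin arrays no gene was called for this difference (lowest adjusted p = 0.128), and leaving out single arrays gave 0 to 8 calls. With a replicate block on the B6 and BC-R3 flagellin arrays the 3 calls were Adgrg3, Pgap1 and F7, the coagulation factor VII gene (-1.46 ± 0.17, adjusted p = 0.00238, against 0.137 without the block), while Ppbp was lost (adjusted p = 0.0699).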

How the results depend on the processing

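Against the 10 genes called between flagellin-treated CB-R1 and C3Bir, testing all probe sets called 25 (11 on chromosome 3, against 6), the 6 arrays alone 61 (12 on chromosome 3), a fixed replicate block 21 and a minimum difference of 1 called 6. Leaving out 1 array gave 5 to 74, and 4 to 13 on chromosome 3. The unstimulated count of 183 became 407 with the fixed replicate block, 31 with the minimum difference, 7 in the fit of 12 unstimulated arrays, 8 in that of 6, 3 without unstimulated arrays 2 and 3 of B6 and C3Bir (chosen after seeing the data), and 6 to 1766 with 1 array left out. It was 1766 without unstimulated array 1 of C3Bir, and 414 without array 3 of CB-R1. The count for B6 minus BC-R3, 3, became 10 with all probe sets, 5 in the fit of 12 flagellin arrays and 3 to 4 with 1 array left out. The difference between backgrounds, 3, became 5 with all probe sets, 5 with the fixed block, 0 in the fit of 12 flagellin arrays and 0 to 8 with 1 array left out; the difference between conditions, 0, became 0 to 4. Chromosome 3 genes nearer to B6, 58, became 102 with all probe sets and 32 to 89 with 1 array left out. The causes were not tested. With the replicate block within the B6 and BC-R3 flagellin arrays (chosen after seeing the data) 4 genes were called for B6 minus BC-R3, the same 3 and F7, and 3 for the difference between backgrounds, 2 of them shared. Same-numbered CB-R1 and C3Bir flagellin arrays correlated at -0.13, 0.14 and -0.09, so they share a number only.

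No called gene changed sign in any setting. Signs turned in uncalled genes near 0: Gbp7 to -0.0039 after quantile normalization and Csf1r to 0.0534 with the mean of probe sets. With 1 array left out, values ran from -0.0525 to 0.0536 for Csf1r, -0.1276 to 0.1384 for Il1b, -0.1109 to 0.1209 for Tifa, -0.0198 to 0.2179 for Adgre1 and -0.1819 to 0.1641 for Gbp7.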

Other observations

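Cd5l, a gene of tissue macrophages on chromosome 3, differed far more between the genetic backgrounds than between the congenic pairs. With flagellin it stood at 12.68 ± 0.21 (SD, n = 3) in B6 and 12.59 ± 0.19 in BC-R3, against 9.83 ± 0.18 in CB-R1 and 8.61 ± 0.46 in C3Bir. Tnf was likewise higher on the B6 background, at 10.57 ± 0.40 in B6 and 10.25 ± 0.61 in BC-R3, against 8.73 ± 0.05 in CB-R1 and 9.20 ± 0.29 in C3Bir. These differences between backgrounds were not tested.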
